A study of Mus musculus with 4 samples.

Results

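The nuclear factor I (NFI) family and a small group of transcription factors tied to glial competence were followed across 4 mouse neural stem cell (NSC) lines. The 8 genes were chosen by name: *Nfia*, *Nfib*, *Nfic* and *Nfix* (the 4 NFI genes), *Zbtb20* and *Npas3*, and the zinc finger homeobox genes *Zeb1* and *Zeb2*. They were 8 of the 27612 genes named in any table, and all 8 were listed in every table of every line. The lines XN4, XN1, KN1 and CN4 were made from epiblast stem cells (EpiSCs) of strain 129/Sv, with no genetic change given in the labels. All 4 lines grew with EGF and FGF2, each at 10 ng/ml. XN4 and XN1 also received 10 µM XAV939, a Wnt antagonist, from different suppliers, and by the study's account the batch used for XN1 formed crystals in the medium; KN1 had no further addition, and CN4 received 2 µM CHIR99021, a Wnt agonist. Each line was grown, fixed in CellCover and sequenced as 1 BD Rhapsody single-cell library, so each line stands for its own culture and its own library at once, and the Wnt condition, the line and the library cannot be told apart.

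NFI proteins are DNA-binding factors that act as dimers on a palindromic site. In the developing spinal cord and forebrain they appear as neuronal production gives way to gliogenesis, and NFIA, working with SOX9, is known for switching on astrocyte genes. ZBTB20, a zinc finger repressor, takes part in the same switch to astrocytes and in hippocampal specification, and NPAS3 is a bHLH-PAS factor of neural progenitors and astrocytes that needs a partner such as ARNT or ARNT2. ZEB1 and ZEB2 repress epithelial genes through E-box motifs; ZEB2 (SIP1) marks the entry of epiblast cells into the neural lineage, and ZEB1 is found in progenitors that have not yet left the neuroepithelium.

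Depth differed between the lines. The normalized tables held 3448 to 3975 cells per line, of 4000 that the design text says were drawn, and 19271688 to 41539513 reads, with medians of 4637 to 7796 reads per cell. KN1 stood apart, with a median of 833 genes per cell against 2257 to 2824 in the other lines. It also had 7.04 reads per captured gene in a cell against 2.05 to 3.14. The label NSC was checked with 10 marker genes. In XN4 6 of the 10 were listed and 3 reached 10% of cells, *Sox2* had a read in 0.560% of cells, and *Fabp7*, *Sox3*, *Hes5* and *Sox1* were not listed. All 10 were listed in KN1, but only 5 reached 10% of cells, against 8 in XN1 and 10 in CN4. *Sox2* had a read in 13.9% of KN1 cells. The part of the low gene count per KN1 cell in this was not tested. The summed level of 11 connective tissue markers was 88.5 reads per 10000 in XN4 and 0.910 to 2.74 in the other lines, with *Col3a1* in 97.8% of XN4 cells. The XN4 library therefore goes against its label, and the range of each gene over the lines is also given without it. By microarray the study reported *Sox2* in all its lines, with *Sox3* and *Pax6* low in XN4. It also reported neurons, oligodendrocytes and astrocytes from XN4 under differentiation conditions. Between 14 and 21 cell barcodes were shared by any pair of lines in the normalized tables.

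The 8 genes are long. By the GENCODE annotation of GRCm38, *Npas3* spans 823 kb (chr12:53248677-54072175), *Zbtb20* 767 kb (chr16:42875881-43642602), *Nfib* 416 kb (chr4:82290173-82705750) and *Nfia* 346 kb (chr4:97772734-98118874). *Zeb1* spans 184 kb, *Zeb2* 134 kb (chr2:44983632-45117395), *Nfix* 100.5 kb (chr8:84699876-84800344) and *Nfic* 59.5 kb (chr10:81396186-81455635). Between 85.1% (*Zeb2*) and 99.3% (*Npas3*) of each span is intron, and the pipeline counted intronic reads in XN4, XN1 and CN4, where its settings are given. Each of the 8 genes overlaps between 1 and 9 other annotated genes, among them *Zeb2os*, which lies antisense to *Zeb2*, and *BC002163* inside *Zbtb20* on the same strand. Reads could be divided between such neighbours, and between the similar NFI paralogs.

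RefSeq upstream windows of 250 bases (GRCm38.p6) were found for 6 of the 8 genes, with 1 window each for *Nfia*, *Nfic*, *Npas3* and *Zbtb20* and 4 each for *Nfix* and *Zeb2*; *Nfib* and *Zeb1* had no entry. The windows of the 4 genes with 1 window each are printed. Of these, *Npas3*, *Nfic* and *Zbtb20* had wide and unlike contrasts between the lines, described below, and *Nfia* a narrow one outside KN1. Capitals mark each CG dinucleotide, and each sequence reads 5′ to 3′ on the gene's own strand, ending at the base before a RefSeq transcript start. RefSeq starts differ from the GENCODE gene starts given above: the *Nfia* window lies upstream of the printed span, outside it, and the *Nfic* and *Zbtb20* windows lie within theirs.

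Npas3 (chr12:53248182-53248431, plus strand): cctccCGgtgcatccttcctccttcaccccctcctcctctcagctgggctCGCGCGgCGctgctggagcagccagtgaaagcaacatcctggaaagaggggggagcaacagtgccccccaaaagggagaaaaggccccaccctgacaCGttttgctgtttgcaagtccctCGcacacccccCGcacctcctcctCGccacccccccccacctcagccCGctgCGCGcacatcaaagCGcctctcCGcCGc

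Nfic (chr10:81427174-81427423, minus strand): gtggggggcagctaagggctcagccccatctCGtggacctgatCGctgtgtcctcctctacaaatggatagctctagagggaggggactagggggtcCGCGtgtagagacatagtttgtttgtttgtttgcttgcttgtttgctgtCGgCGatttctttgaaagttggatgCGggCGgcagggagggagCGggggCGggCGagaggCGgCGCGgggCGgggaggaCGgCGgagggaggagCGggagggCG

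Zbtb20 (chr16:43247034-43247283, plus strand): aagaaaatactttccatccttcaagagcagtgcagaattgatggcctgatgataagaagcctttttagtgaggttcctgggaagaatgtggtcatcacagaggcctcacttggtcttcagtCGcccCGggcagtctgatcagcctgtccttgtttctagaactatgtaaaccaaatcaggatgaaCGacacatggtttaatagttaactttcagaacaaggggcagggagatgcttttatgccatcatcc

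Nfia (chr4:97581693-97581942, plus strand): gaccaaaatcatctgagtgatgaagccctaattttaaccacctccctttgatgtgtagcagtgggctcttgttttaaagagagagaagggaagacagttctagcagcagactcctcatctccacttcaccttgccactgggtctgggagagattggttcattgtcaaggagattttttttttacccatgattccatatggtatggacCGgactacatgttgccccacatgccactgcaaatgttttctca

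The *Npas3* window held 15 CG dinucleotides at 66.4% G+C and the *Nfic* window 19 at 63.2%. The *Zbtb20* window held 3 and the *Nfia* window 1, both at 44.8% G+C. Over all 32851 windows of the table the medians were 6 CG dinucleotides and 52.4% G+C, so the first pair lay above the median on both measures and the second pair below it. These values describe 1 tabulated start per gene, and other starts of these genes were not examined. The letters TTGGC, the core of an NFI site, were searched on both strands. They were present in all 4 windows of *Zeb2* and 2 of the 4 of *Nfix*, were not found in the windows printed above, and occur in 41.5% of all windows. In *Zeb2*, 2 of the windows overlap and hold the same site. The palindrome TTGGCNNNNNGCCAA, which contains that core, was in none of the windows of these genes and in 12 of all windows. The E-box CACCTG bound by ZEB proteins was in 1 *Nfix* window and in 17.2% of all windows.

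Levels were measured as summed reads per 10000 reads of the line, and they are compared between lines within a gene. These levels are not adjusted for gene span. The ratios between KN1 and the other lines depend on span, so the place of KN1 is given both ways. *Npas3* varied most. Its level was 6.10 in CN4, 40.7 in KN1 (40.4 to 40.9), 2.77 in XN1 and 0.306 in XN4 (95% Poisson interval 0.289 to 0.323). The 4 lines thus stood in the order KN1, CN4, XN1, XN4, with steps of 6.67-fold, 2.20-fold and 9.04-fold. Relative to the median ratio of genes of like span, the log2 ratio of CN4 over KN1 was -0.49 and that of XN4 over KN1 -5.21, in place of -2.74 and -7.05. The highest level was 132.9 times the lowest, 14.7 times without XN4 and 19.9 times without KN1. *Zbtb20* gave a different order, with 2.86 reads per 10000 in CN4, 6.60 in KN1, 7.36 in XN1 and 1.77 in XN4. XN1 was 2.58-fold above CN4 and 4.15-fold above XN4; the range was 2.58-fold without XN4. KN1 was 1.12-fold below XN1 in level, but relative to genes of like span its log2 ratio to XN1 was -2.48 and that of CN4 to KN1 1.04, so its place is not settled.

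*Zeb1* was high in KN1 only, at 32.1 reads per 10000 against 3.62 in XN4, 5.59 in XN1 and 5.14 in CN4. Without KN1 the other lines lay within 1.54-fold of each other, and without XN4 the range was 6.24-fold. *Zeb2* was present at 1.35 in CN4, 2.92 in KN1, 1.07 in XN1 and 2.47 in XN4. XN4 stood 1.83-fold above CN4 and 2.32-fold above XN1. The range was 2.73-fold with or without XN4, since KN1 was highest and XN1 lowest. Relative to genes of like span the log2 ratio of KN1 over XN1 was 0.46, and that of XN4 over KN1 turned from -0.24 to 0.56. The 2 ZEB genes thus did not keep one order over the lines.

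Among the NFI genes, *Nfia* was at 6.48 reads per 10000 in CN4, 14.5 in KN1, 7.20 in XN1 and 7.55 in XN4. Outside KN1 the spread was 1.17-fold, and CN4 and XN1 alone differed by 1.11-fold. Over all lines the range was 2.25-fold for *Nfia* and 2.77-fold for *Nfib*, with or without XN4. *Nfib*, which is required for lung and forebrain maturation, was at 14.5 in CN4, 16.2 in KN1, 5.85 in XN1 and 6.56 in XN4. CN4 stood 2.21-fold above XN4 and 2.48-fold above XN1. KN1 was 1.12-fold above CN4 in level, but relative to genes of like span CN4 over KN1 was 2.08 on the log2 scale, KN1 over XN1 -0.85 and XN4 over KN1 0.53.

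*Nfic*, best known from tooth root formation, was lowest in KN1, at 0.720 (0.688 to 0.752), and was at 4.03 in XN4, 3.20 in XN1 and 2.67 in CN4. *Nfix*, a regulator of neural stem cell quiescence and of fetal muscle, was at 5.54 in CN4, 2.10 in KN1, 3.13 in XN1 and 4.62 in XN4. The range of *Nfic* was 5.60-fold, and 4.45-fold without XN4; that of *Nfix* was 2.63-fold with or without it. KN1 was thus the lowest line for *Nfic* and *Nfix*, on the level and relative to genes of like span. It was the highest for *Nfia* and *Nfib* on the level alone: relative to genes of like span, *Nfia* was at -1.30 in KN1 over XN1 and 1.08 in CN4 over KN1. The intervals of all these levels were narrow, but they cover counting error only. Reads are not unique molecules, and no replicate library measures the spread between cultures.

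**Figure D1:**
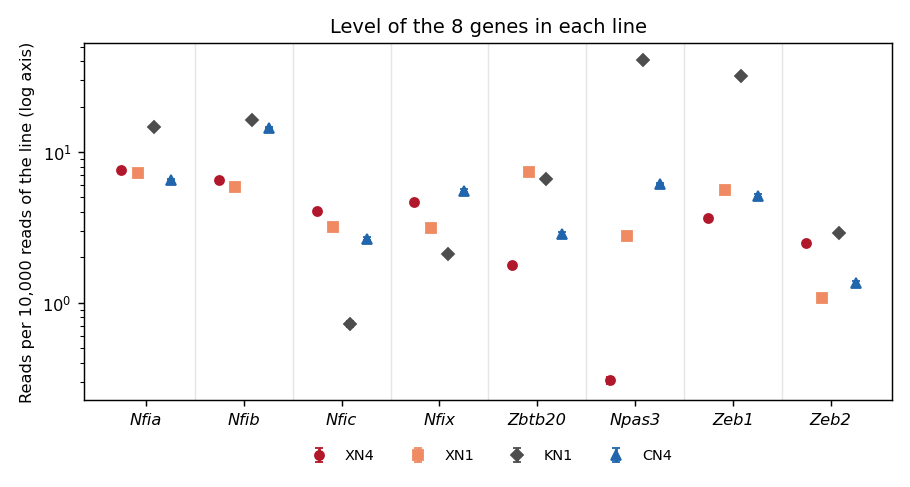
Level of each of the 8 genes in each line, as summed reads per 10000 reads of the line on a log axis, with 95% Poisson intervals (mostly smaller than the symbols) that cover counting error only. *Npas3* ran from 0.306 in XN4 to 40.7 in KN1, whereas *Nfia* lay between 6.48 and 7.55 in the 3 lines other than KN1.

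The NFI family also differed in make-up between the lines. The summed NFI level was 29.2 reads per 10000 in CN4, 33.6 in KN1, 19.4 in XN1 and 22.8 in XN4. *Nfia* and *Nfib* supplied 33.2% and 28.8% of the NFI reads in XN4 and 37.1% and 30.2% in XN1. They supplied 43.3% and 48.3% in KN1, leaving 2.14% to *Nfic* and 6.26% to *Nfix*. In CN4 *Nfib* alone supplied 49.7%, with 22.2% from *Nfia* and 9.13% from *Nfic*. The *Nfic* share was thus lowest in KN1, and among XN4, XN1 and CN4 the *Nfib* share was highest in CN4. The high *Nfib* share of KN1 rests on its level there, which relative to genes of like span turned to -0.85 against XN1. The tables of all reads, which hold 8741 cells of XN4, 14452 of XN1 and 18157 of CN4, gave 32.1%, 36.7% and 21.9% for *Nfia* and 28.9%, 30.3% and 49.4% for *Nfib*. These shares compare reads and not molecules, and a longer NFI gene can collect more intronic reads than a shorter one.

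The share of cells with a read was then compared at an equal number of reads, after drawing 3200 reads from each cell. This did not equalize the number of genes: thinned KN1 cells still held 4.19 reads per captured gene, against 1.73 to 1.94 in the other lines. This left out 290 to 776 shallower cells per line and kept 3129 to 3396. *Npas3* was captured in 7.18% of XN4 cells (exact 95% interval 6.33% to 8.10%), 49.0% of XN1 cells, 85.6% of KN1 cells and 69.8% of CN4 cells. Before thinning the shares were 12.2%, 59.2%, 85.4% and 83.6%. The order of the lines was the same as for the level. No cell type lacking these genes was at hand to measure stray reads. *Col3a1*, abundant in XN4, had a read in 1.23% of KN1 and 0.812% of CN4 cells and was not listed in XN1, at the median depths given above.

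*Zbtb20* was captured in 33.7% of thinned XN4 cells, 81.6% of XN1 cells, 42.5% of KN1 cells and 49.8% of CN4 cells (51.3%, 88.4%, 44.3% and 68.8% before thinning). *Nfib* was captured in 95.8% of CN4 cells, against 76.2% in XN4, 77.0% in XN1 and 74.4% in KN1 (97.7%, 87.4%, 84.4% and 75.3% before thinning). Among XN4, XN1 and CN4, *Nfib* was thus captured most often in CN4 and *Zbtb20* in XN1, the lines with the highest levels of each.

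*Nfic* was captured in 57.5% of XN4 cells, 56.8% of XN1 cells and 48.9% of CN4 cells, but in 6.48% of KN1 cells (5.67% to 7.36%). *Nfix* was captured in 66.0%, 58.2% and 75.6% of the cells of XN4, XN1 and CN4 and in 20.0% of KN1 cells. For these 2 genes the share and the level both placed KN1 lowest. Before thinning the KN1 shares were 7.87% for *Nfic* and 23.1% for *Nfix*, and the other lines ranged from 64.8% to 72.1% and from 68.5% to 88.9%.

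In KN1 the share went against the level for *Nfia*, *Nfib*, *Zeb2* and, beside CN4, *Zbtb20*, and no order is read from the share there. *Nfia* was captured in 66.4% of KN1 cells and in 78.6% to 81.0% of the cells of the other lines, although its summed level was highest in KN1. *Zeb2* was captured in 20.8% of KN1 cells against 40.2% in XN4, 26.1% in XN1 and 29.6% in CN4. *Zeb1* was captured in 78.9% of KN1 cells, 53.7% of XN4, 74.2% of XN1 and 69.0% of CN4 cells. Before thinning its shares were 79.2%, 72.4%, 82.7% and 83.3%, so KN1 was not highest there. KN1 cells that captured a gene held more reads of it. The median in such thinned cells was 5 reads for *Nfia* and 3 for *Zeb2* in KN1, against 2 to 3 and 1 to 2 in the other lines. It was 12 reads for *Npas3* and 10 for *Zeb1*, against 1 to 2 and 2. The part of the low gene count per KN1 cell in these shares was not tested.

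**Figure D2:**
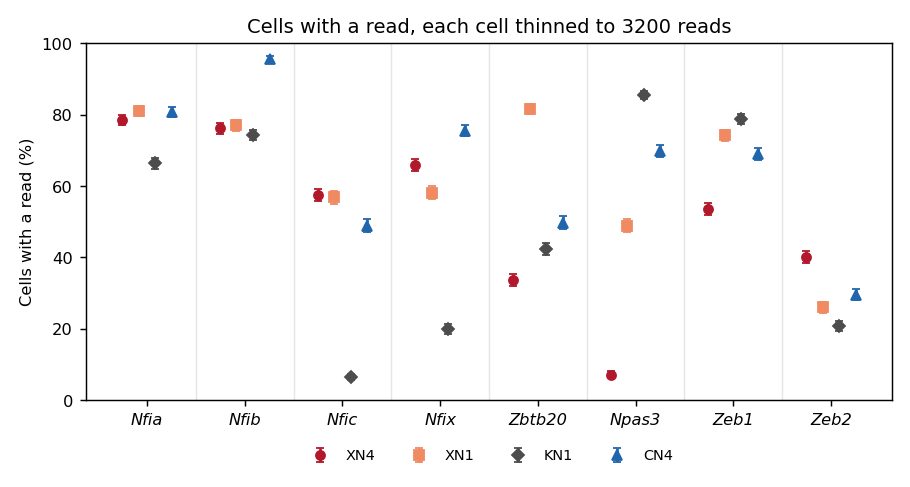
Percentage of cells with at least 1 read of each gene after every cell was thinned to 3200 reads, by line, with exact 95% binomial intervals that cover counting error only. *Nfic* reached 6.48% of KN1 cells against 48.9% to 57.5% elsewhere, and *Nfib* reached 95.8% of CN4 cells.

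With 1 library per line there is no test between lines, and genes are described by a rule of size: at least 2-fold between 2 lines, among genes with a read in at least 1% of the cells of either line. The comparisons share libraries, so that one unusual library enters several of them. Between CN4 and XN1, the lines grown with the Wnt agonist and the antagonist that both carry NSC markers, 3 of the 8 genes were past 2-fold, against a background of 17.6% of 12282 genes (8.33% higher and 9.29% lower). *Nfib* was 2.48-fold and *Npas3* 2.20-fold higher in CN4, and *Zbtb20* was 2.58-fold lower. *Nfix* was 1.77-fold higher, and *Nfia*, *Nfic*, *Zeb1* and *Zeb2* differed by 1.09-fold to 1.26-fold. The median log2 ratio was 0.11 over the 8 genes and 0.10 over all genes.

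Between KN1 and XN1, 6 of the 8 genes were past 2-fold, 5 higher in KN1 and 1 lower, where 46.9% of 11872 genes were (23.9% higher and 23% lower). *Npas3* was 14.7-fold, *Zeb1* 5.74-fold, *Nfib* 2.77-fold, *Zeb2* 2.73-fold and *Nfia* 2.02-fold higher, the last just past the rule, and *Nfic* was 4.45-fold lower. *Nfix* was 1.49-fold and *Zbtb20* 1.12-fold lower, within the rule. The median log2 ratio of the 8 genes was 1.23 against -0.02 for all genes. Relative to genes of like span both turned: *Npas3* and *Zeb1* were past 2-fold higher, *Nfia*, *Nfic*, *Nfix* and *Zbtb20* were lower, and the median was -1.08. Within their span classes *Npas3* and *Zeb1* stood at percentiles 85.0 and 85.3. *Nfia*, *Nfic*, *Nfix* and *Zbtb20* stood at 17.6, 4.16, 15.3 and 6.76. The share of all genes past 2-fold under this scaling is not given here. Between CN4 and KN1, 7 genes were past 2-fold against a background of 42.1% (21.4% higher and 20.7% lower): *Nfic* and *Nfix* were 3.70-fold and 2.63-fold higher in CN4, and *Zeb1*, *Npas3*, *Zbtb20*, *Nfia* and *Zeb2* were 6.24-fold, 6.67-fold, 2.31-fold, 2.25-fold and 2.16-fold lower. *Nfib* was within the rule, at 1.12-fold lower. Relative to genes of like span this split turned too: the 4 NFI genes and *Zbtb20* were past 2-fold higher in CN4 and *Zeb1* lower. Within their span classes *Nfia*, *Nfib*, *Nfic* and *Nfix* stood at percentiles 76.2, 91.9, 95.9 and 95.7. *Zbtb20* stood at 75.5 and *Zeb1* at 9.72. For this scaling too the share of all genes past 2-fold is not given here.

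XN4 and XN1 were both grown with XAV939 at the same nominal dose but from different suppliers, so its effective dose, the line and the library cannot be told apart. Between them 3 of the 8 genes were past 2-fold, against 31.2% of 12495 genes (17.5% higher and 13.8% lower in XN4): *Zbtb20* was 4.15-fold and *Npas3* 9.04-fold lower in XN4, and *Zeb2* was 2.32-fold higher. The 4 NFI genes differed by 1.05-fold to 1.47-fold, below the rule, where most of the 12495 genes also lay. Between XN4 and CN4, 2 genes were past the rule against 33.1% of genes (18.1% higher and 15% lower), *Nfib* at 2.21-fold and *Npas3* at 19.9-fold lower in XN4. Between XN4 and KN1, 6 genes were, against 43.9% (22.2% higher and 21.7% lower): *Nfic* and *Nfix* were higher in XN4 by 5.60-fold and 2.20-fold, and *Nfib*, *Zbtb20*, *Npas3* and *Zeb1* were lower. Relative to genes of like span *Nfic* and *Nfix* were past 2-fold higher, at percentiles 94.7 and 87.7 of their span classes. *Npas3* and *Zeb1* were lower, at percentiles 5.87 and 13.2. The share of all genes past 2-fold under this scaling is not given here.

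The KN1 ratios moved with the length of the gene across the whole table. Over all genes, the median log2 ratio of KN1 over XN1 was -0.52 for genes spanning under 10 kb, -0.32 from 10 to 30 kb, 0.13 from 30 to 100 kb, 0.99 from 100 to 300 kb and 2.32 above 300 kb. In the longest class 82.6% of 547 genes were at least 2-fold higher in KN1. The same classes gave -0.95 and -2.24 for the 2 longest in CN4 over KN1, but only 0.09 and 0.23 in CN4 over XN1. The parts of the KN1 line and of its library in this relation cannot be told apart.

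Relative to the median of genes of like span, an adjustment added after the data were seen, the KN1 over XN1 ratio of *Npas3* was still higher by 1.56 on the log2 scale and that of *Zeb1* by 1.53. That of *Zeb2* was 0.46. The values were -1.30 for *Nfia* and -0.85 for *Nfib*, the opposite sign to their unadjusted ratios of 1.01 and 1.47. *Nfic* was at -2.28, *Nfix* at -1.56 and *Zbtb20* at -2.48. Whether *Nfia* and *Nfib* were above or below XN1 in KN1 therefore depends on the span scaling, whereas *Npas3* and *Zeb1* were higher and *Nfic* lower on both. The class above 300 kb has no upper edge and holds both *Nfia* (346 kb) and *Npas3* (823 kb), while the class medians rose with span. The adjustment is therefore coarse for genes of that class, and a finer one was not tested. In CN4 over KN1 the same adjustment gave 2.08 for *Nfib*, 1.08 for *Nfia* and 1.04 for *Zbtb20*, each now past 2-fold higher in CN4. *Npas3* (-0.49) and *Zeb2* (-0.17) were no longer past 2-fold. *Zeb1* (-1.70), *Nfic* (1.91) and *Nfix* (2.34) kept direction and call. In XN4 over KN1, *Nfib* changed sign (0.53) and *Zbtb20* (-0.05) was no longer past 2-fold. The calls of *Npas3* in CN4 over XN1 (0.91) and *Zeb2* in XN4 over XN1 (0.98) fell just short of 2-fold. *Zbtb20* and *Npas3* have nearly equal spans, and in KN1 over XN1 their unadjusted log2 ratios were -0.16 and 3.88.

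**Figure D3:**
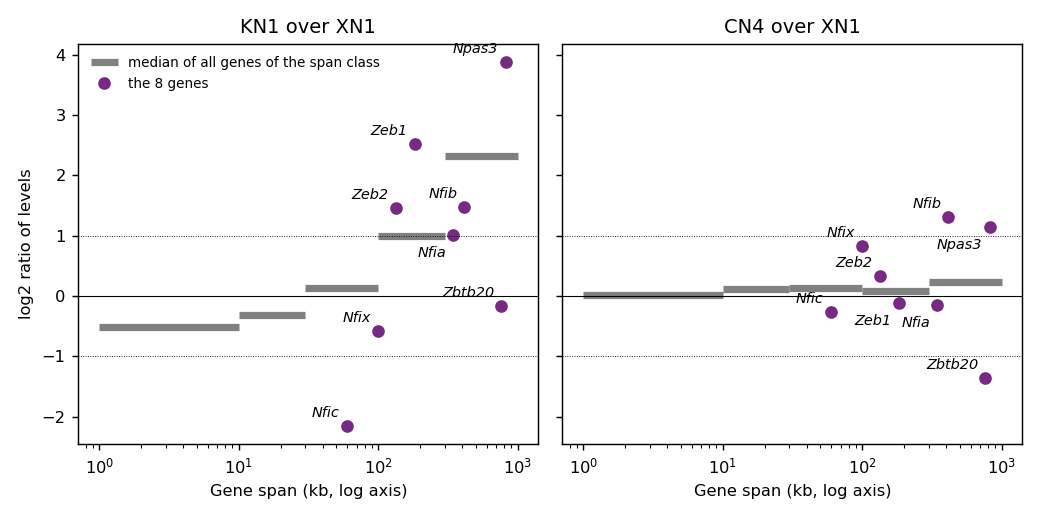
Log2 ratio of levels against gene span in kb (log axis) for the 8 genes (points) in KN1 over XN1 and CN4 over XN1. Grey bars give the median of all genes in each span class, which rose from -0.52 to 2.32 in the first comparison and lay between 0.01 and 0.23 in the second, and dotted lines mark 2-fold.

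The 8 genes were often captured in the same cell. In cells thinned to 3200 reads the median number of the 8 genes with a read was 5 in XN1 and CN4 and 4 in XN4 and KN1. At least 6 were captured in 39.1% of XN1 and 41.6% of CN4 cells, against 16.5% in XN4 and 11.0% in KN1. No NFI gene was captured in 0.158% of CN4 cells (5 of 3158), 1.12% of XN1, 1.51% of XN4 and 7.54% of KN1 cells (256 of 3396). Cells without a read of any NFI gene were thus fewest in CN4 and most frequent in KN1. KN1 captured fewer genes of all kinds per cell, with a median of 763.5 in thinned cells against 1650 to 1846, and the part of this in its lower numbers was not tested.

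**Figure D4:**
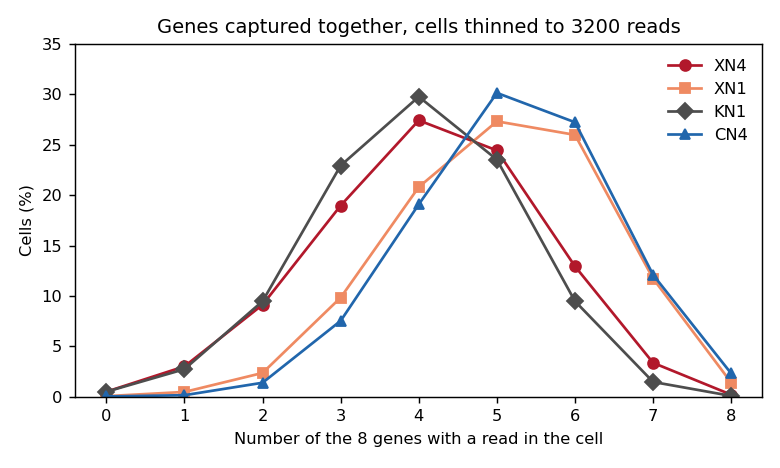
Percentage of cells (vertical axis) by how many of the 8 genes had a read (horizontal axis) after thinning to 3200 reads, for each line. The distributions of XN1 and CN4 peak at 5 genes and those of XN4 and KN1 at 4.

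Whether these genes marked different cells of a line was examined for each of the 28 gene pairs, as the number of cells with both genes over the number expected if the 2 were captured independently within 20 strata of reads per cell. The median ratio was 1.01 in XN4, XN1 and KN1 and 1.00 in CN4. The lowest was 0.879 for *Nfic* with *Nfix* in KN1 (80 cells against 91.0 expected), and the highest was 1.05 for *Zbtb20* with *Npas3* in XN4. *Npas3* and *Zeb1* were captured together in 2791 KN1 cells against 2725 expected, and *Nfia* and *Nfib* in 2946 XN1 cells against 2899. Where both genes are captured in most cells the ratio cannot rise far above 1, so these values are descriptions, and whether a pair departs from independent capture was not tested.

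Dividing cells (at least 2 of *Mki67*, *Top2a* and *Hmgb2* with a read) were set beside nondividing cells (none of the 3) within each line, both thinned. They numbered 740 against 1952 in XN4, 797 against 1725 in XN1, 849 against 1543 in KN1 and 1730 against 820 in CN4. *Nfic* was captured more often in dividing cells of every line: 64.1% against 54.3% in XN4, 67.6% against 52.9% in XN1, 7.66% against 5.44% in KN1 and 51.9% against 42.7% in CN4. *Nfix* was too, by 5.87 to 7.37 percentage points. *Zeb1* was captured less often in dividing cells of every line, by 2.25 to 4.42 points, and in KN1 its level was 25.5 reads per 10000 in dividing and 41.7 in nondividing cells. These thinned differences had the same sign in all 4 libraries, but the counting intervals of the *Zeb1* shares overlapped in XN4, XN1, KN1 and CN4, as did those of *Nfic* in KN1 (5.96% to 9.65% and 4.37% to 6.70%). Without thinning, all 8 genes, *Zeb1* included, were captured more often in dividing cells of XN4, XN1 and KN1. The share of all genes captured more often in dividing cells is not given here.

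*Zbtb20* was captured in fewer dividing than nondividing cells of XN4 (28.6% and 36.0%), XN1 (76.7% and 83.1%) and CN4 (47.8% and 54.6%). In KN1 the share was 46.4% against 41.5% while the level was lower in dividing cells, at 6.25 against 7.11. *Npas3* was captured in 66.3% of dividing and 76.8% of nondividing CN4 cells, and differed by 0.392 to 1.54 points in the other lines. The *Npas3* level was lower in dividing cells of CN4 (5.31 against 7.29), KN1 (36.4 against 45.7) and XN1 (2.64 against 2.83). In XN4 it was 0.389 against 0.355. *Zeb2* was captured in 32.6% of dividing and 43.0% of nondividing XN4 cells. In KN1 it went the other way, at 23.9% and 18.8%, and its differences were 0.803 points in XN1 and -0.925 in CN4. *Nfia* was higher by 9.14 points in KN1 and 5.31 points in XN1 and was captured in 74.5% of dividing and 79.1% of nondividing cells of XN4. Dividing cells also had more genes with a read at the same number of reads (medians of 1747 against 1603 in XN4, 1869 against 1785 in XN1, 900 against 696 in KN1 and 1863 against 1814 in CN4), and the part of this in the shares was not tested. Cells of one library are not replicates, so no test is given.

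**Figure D5:**
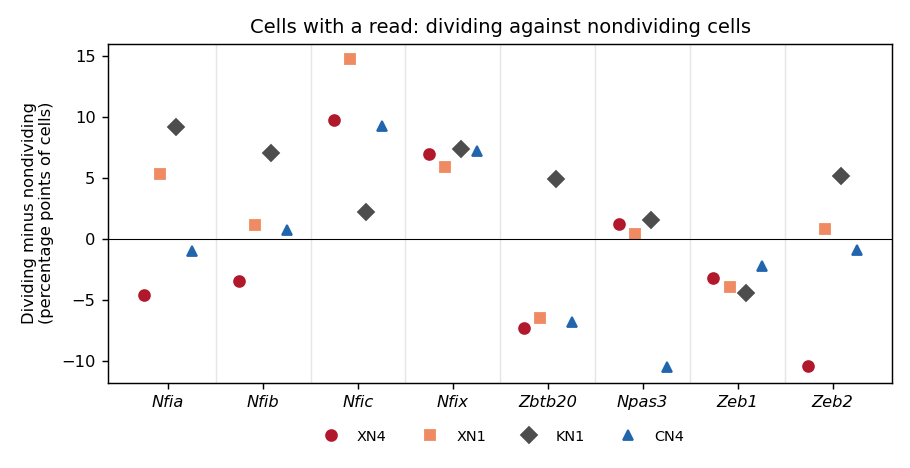
Share of dividing minus share of nondividing cells with a read, in percentage points, for each gene and line after thinning to 3200 reads. *Nfic* and *Nfix* lie above 0 and *Zeb1* below 0 in all 4 lines.

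Within a line, *Npas3* also varied with *Malat1*, a nuclear long noncoding RNA. In the 25% of thinned cells with the most *Malat1* reads its level was 3.74 times that in the 25% with the fewest in XN4, 1.48 times in XN1, 1.91 times in KN1 and 2.06 times in CN4. *Zeb1* was 2.44 times higher in XN4 and 2.29 times in KN1, and 1.06 and 1.05 times in XN1 and CN4. *Zbtb20* was 3.19, 1.61, 1.39 and 1.25 times higher in XN4, XN1, KN1 and CN4. *Nfic* moved little, with ratios of 0.92 to 0.96. *Nfia*, *Nfib* and *Zeb2* were 2.23, 1.86 and 2.92 times higher in XN4. In KN1 these 3 genes were at 0.89 to 1.00 times, beside the higher ratios of *Npas3* and *Zeb1*. *Malat1* itself took a median of 191 of the 3200 reads in the high KN1 cells and 24 in the low ones, and the median genes per cell were 728 and 805. In XN4 the median genes per cell were 1491.5 in the high cells and 1744 in the low ones. The same ratios over all genes and over genes of like span are not given here, so none is read as particular to these genes.

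Genes that work with or under these factors were taken from lists. Their levels and ratios are not scaled to genes of like span, so the place of KN1 in these lists is not settled. Of 30 partners and neighbours in the glial switch, such as *Sox9*, *Olig2*, *Notch1* and *Stat3*, 29 were listed in CN4, 28 in XN1, 27 in KN1 and 22 in XN4. Of all 27612 genes, the normalized tables listed 14704 in CN4, 14033 in XN1, 14672 in KN1 and 15826 in XN4. *Sox9*, the partner of NFIA, was at 3.55 reads per 10000 in CN4, 1.71 in KN1, 5.26 in XN1 and 1.69 in XN4. *Olig1* and *Olig2*, which direct motor neuron and oligodendrocyte fates, were not listed in XN4 and were captured in 88.4% and 86.7% of XN1 cells, 25.7% and 27.2% of KN1 cells and 87.2% and 84.8% of CN4 cells. XN4 thus carried reads of all 4 NFI genes with neither *Olig1* nor *Olig2* listed. *Arnt2*, a dimer partner of NPAS3, was at 0.936 in CN4, 1.17 in KN1, 0.843 in XN1 and 2.03 in XN4, highest in the line with least *Npas3*. Between CN4 and XN1, 5 of the 27 partners tested were past 2-fold higher and 1 lower, against 8.33% and 9.29% of all genes (median log2 ratio 0.27 against 0.10). Between KN1 and XN1, 7 of 27 were higher and 7 lower, against 23.9% and 23% (median -0.42 against -0.02).

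Of 20 genes known as NFI or SOX9 targets or as early astrocyte genes, 20 were listed in CN4, 15 in KN1, 19 in XN1 and 14 in XN4. Between 14033 and 15826 of all 27612 genes were listed per line. *Gfap*, the mature astrocyte filament gene, was captured in 3.20% of XN1 and 3.80% of CN4 cells and was not listed in XN4 or KN1. *Slc1a3*, the glutamate transporter of radial glia and astrocytes, was at 25.5 reads per 10000 in CN4, 27.2 in KN1, 9.22 in XN1 and 0.639 in XN4. *Fabp7*, a radial glial lipid carrier, was not listed in XN4 and was at 11.4 in XN1, 3.86 in KN1 and 41.2 in CN4. Other genes of the list went the other way. *Sparc* was highest in XN4, at 33.8, with 22.7 in XN1, 3.91 in KN1 and 7.22 in CN4. *Clu* was at 0.464 in XN1 and 0.0436 in CN4. In CN4 over XN1, 7 of the 19 tested were past 2-fold higher and 2 lower, where 8.33% and 9.29% of all genes were (median log2 ratio 0.41 against 0.10). In KN1 over XN1, 3 of 14 were higher and 8 lower, where 23.9% and 23% of all genes were (median -1.40 against -0.02). Among all genes spanning under 10 kb, 9.02% were higher and 34.5% lower in that comparison (median -0.52). From 10 to 30 kb, 13.9% were higher and 28.3% lower (median -0.32). In XN4 over XN1, where 17.5% and 13.8% of all genes were higher and lower, 0 of 13 were higher and 8 lower (median -1.45 against 0.12 for all genes). The list was not split by the direction of regulation, so its counts of higher and lower genes do not measure NFI activity. The NFI genes were present in every line, and these target genes ranged widely. A relation between them was not tested.

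The 20 epithelial genes known to be repressed by ZEB proteins were mostly not listed. Of these, 3 were listed in CN4, 3 in KN1, 1 in XN1 and 4 in XN4, where 14033 to 15826 of all 27612 genes were listed. *Cdh1*, encoding E-cadherin, had a read in 0.458% of XN4 and 0.403% of KN1 cells and was not listed in XN1 or CN4, and *Epcam* had a read in 0.290% of CN4 cells and was listed in no other line. *Lama5*, a laminin chain, was the sole gene of the list over 10% of cells, at 20.0% in XN1 and 26.7% in CN4, with 7.40% in KN1. Among 12 mesenchymal genes and factors of epithelial to mesenchymal transition, 7 of the 10 tested were past 2-fold higher in XN4 than in XN1 and 1 lower, against 17.5% and 13.8% of all genes, with a median log2 ratio of 3.01 against 0.12. *Snai2* and *Twist1* were captured in 22.9% and 21.7% of XN4 cells. In CN4 over XN1, 1 of 9 was higher and 3 were lower, against 8.33% and 9.29% (median -0.33 against 0.10). In KN1 over XN1, 2 of 7 were higher and 5 lower, against 23.9% and 23% (median -2.22 against -0.02). Both ZEB genes were captured in each line, and of these epithelial genes at most 4 were listed in any line. No line lacked reads of the ZEB genes, and a relation between them and the epithelial genes was not tested. A gene that is not listed was left out of the table and is not known to be at 0.

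Genes with the pattern most like each of the 8 were found among 8935 genes captured in at least 10% of the cells of a line, by the Euclidean distance between centred log2 levels (pseudocount 0.01) over the 4 lines. The nearest were *Dock3*, *Fat3* and *Magi2* for *Npas3* (distances 0.23, 0.31 and 0.36), all over 300 kb long. For *Zeb1* they were *Osbpl6*, *Msra* and *Rasal2* (0.12, 0.23 and 0.28). For *Nfia* they were *Bcr*, *Ctc1* and *Zfp865* (0.02, 0.06 and 0.09), and for *Nfib* *Ccdc34*, *Rgma* and *Gpsm2* (0.09, 0.19 and 0.22). *Nfic* lay closest to *Laptm4a*, *Gltp* and *Ctsb* (0.14, 0.19 and 0.20), which were also lowest in KN1. *Nfix* lay closest to *Bahd1*, *Thap11* and *Hnrnph1* (0.08, 0.14 and 0.14), and *Zeb2* to *Akap13*, *Ubtd2* and *Gtf2ird2* (0.08, 0.08 and 0.12). The nearest gene of *Zbtb20* was the most distant of the 8, *Acap3* at 0.27, followed by *Rnf157* and *Utp14b* (0.32 and 0.33). Over 4 libraries such closeness is a description only.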

How the data were processed

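Cells of 4 NSC lines were captured on BD Rhapsody beads and sequenced, 1 library per line. The authors processed reads with the BD Rhapsody WTA Analysis Pipeline 1.12.1 on GRCm38 with GENCODE M19, intronic reads included; the settings for KN1 are not given in the sources used here. The deposited tables of all reads hold read counts per gene and cell for XN4, XN1 and CN4. The deposited normalized tables hold natural log values, ln(1 + 10000 × reads / total), made by the authors with Seurat 4.3.0 with the ribosomal protein and mitochondrial genes removed first. Whole reads were recovered from these values in all 4 lines: 100% were whole within 0.01. In matched cells, 0 values of the 8 genes differed between both kinds of table.

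Levels are summed reads per 10000. Intervals are exact Poisson or Clopper-Pearson at 95% and leave out everything but counting error. Cells were thinned to 3200 reads with a fixed seed, and no doublet caller was run. Spans come from GENCODE M21, upstream windows from RefSeq. Scripts used Python 3.11.15, numpy 2.4.6, scipy 1.17.1 and pandas 2.3.3, and the ratio and pair steps were tested on simulated data. Members, gene lists and rules were chosen with earlier results of these data known: the named genes are the 8 members, their 3 nearest genes each, and genes of the lists. With 1 library per line no p-value is given. The alternatives tried are given in the closing section.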

Additional observations from a re-analysis of the deposited data

How the results depend on the processing

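No paired analysis was possible because each line is 1 library and the lines share no replicate numbers. At 3-fold in place of 2-fold, the number of the 8 genes past the rule was 3 in KN1 over XN1, 3 in CN4 over KN1, 0 in CN4 over XN1 and 1 in XN4 over CN4, and at 1.5-fold it was 5 in XN4 over CN4. The shares of all genes past these 2 folds are not given here, so the counts have no background. Counting without thinning, 8 genes were captured more often in dividing cells of XN4 and 7 in CN4, against 3 in each with thinning, and 8 in XN1 and KN1, against 6 and 7. The same count over all genes is not given here, so these counts have no background. Without strata of depth, the observed over expected cells with both genes, summed over the 28 pairs, was 1.01 in CN4, 1.06 in KN1, 1.02 in XN1 and 1.05 in XN4. Relative to genes of like span, a choice made after seeing the data, 5 log2 ratios past the rule changed sign: *Nfia* (-1.30) and *Nfib* (-0.85) in KN1 over XN1, *Nfia* (1.08) and *Zbtb20* (1.04) in CN4 over KN1, and *Nfib* (0.53) in XN4 over KN1. Under that scaling the split of higher against lower turned from 5 and 1 to 2 and 4 in KN1 over XN1 and from 2 and 5 to 5 and 1 in CN4 over KN1. The share of all genes past 2-fold under it is not given here. The other counts past the rule, both directions together, stayed within 1.5 times under every alternative run, namely means over cells, no filter, a filter of 10% of cells, leaving out the 5% deepest cells or the 10 top genes, centring on all genes or on like span, and the tables of all reads, which were available for 3 comparisons. Of 48 log2 ratios, 4 crossed the 2-fold line with means over cells, 1 without the deepest cells, 1 when centred on all genes and, beside the 5 that changed sign, 9 when centred on like span. With means over cells, XN4 over CN4 lost the call of *Nfib* (-0.94) and gained that of *Zeb2* (1.15). All 32 shares of cells moved when at least 2 reads were asked for or 2000 reads were drawn. A difference between cultures cannot be separated from one between libraries at this design.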

Other observations

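The tables of all reads hold more cells of XN4, XN1 and CN4 than the normalized tables, and the shares of cells with a read of the 8 genes lay close to those in the smaller set before thinning. *Nfib* had a read in 98.2% of 18157 CN4 cells, *Zbtb20* in 88.6% of 14452 XN1 cells and *Npas3* in 12.1% of 8741 XN4 cells. Single cells reached far above the median: in the normalized tables the highest *Nfia* count in an XN4 cell was 107 reads, against a median of 7 in cells with a read. *Hmga2*, a chromatin protein of early neural progenitors, was at 4.07 reads per 10000 in CN4, 10.1 in KN1, 0.256 in XN1 and 2.20 in XN4, not adjusted for gene span. *Nr2f1* and *Nr2f2*, orphan nuclear receptors that act upstream in the switch from neurons to glia, were highest in XN4, captured in 66.1% and 82.0% of its cells against 9.76% to 39.6% and 9.86% to 54.3% in the other lines.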
